A study of Mus musculus with 12 samples.

Results

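Neuronal splicing and RNA-binding regulators were followed in 2 populations of mouse cortical neurons at 2 postnatal ages. The 10 genes were Rbfox1, Rbfox2, Rbfox3, Nova1, Nova2, Elavl2, Elavl3, Elavl4, Ptbp1 and Ptbp2, out of 19937 genes that a probe set names alone. Each gene was read by the probe set that carried exactly its symbol, and where a gene had several, the brightest on average over the 12 arrays was taken. This choice of probe set used names and mean signal, not differences between groups. The 10 genes and the lists used below were themselves chosen with earlier results of these data known. The arrays (Mouse Gene 1.0 ST) held 4 groups of 3 biological replicates, lettered A to C. IN P10 and IN P0 were GFP-positive interneurons sorted from the cortex of Nkx2-1Cre;RCE:LoxP mice at postnatal days 10 and 0. Pyr P12 and Pyr P0 were GFP-positive pyramidal cells sorted from the somatosensory cortex of NexCre;RCE:LoxP mice at postnatal days 12 and 0. All mice were of the C57BL6 strain and all carried a Cre driver together with the RCE reporter, in which Cre switches on GFP. Nkx2-1Cre is active in the medial ganglionic eminence and marks the interneurons born there, not every cortical interneuron, and Nex (Neurod6) is a gene of postmitotic pyramidal cells. The older groups differed by 2 days, and the region named for the pyramidal cells was narrower than that for the interneurons, so that neither can be told apart from the cell population. How many animals made up a replicate was not given in the sources used here.

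RNA-binding proteins of this kind decide which exons a neuron keeps. PTBP1 is abundant in progenitors and non-neuronal cells, where it holds neuronal exons out of the mRNA, including an exon of Ptbp2 without which the Ptbp2 transcript is degraded; PTBP2 takes its place in young neurons and is itself reduced as neurons mature. The RBFOX proteins bind GCAUG and promote or skip an exon depending on which side of it they bind, the NOVA proteins do the same from YCAY clusters and act on many synaptic transcripts, and the neuronal ELAVL (Hu) proteins bind U-rich sequence and also stabilise mRNAs and favour their translation. RBFOX3 is the protein recognised by NeuN antibodies, the common nuclear marker of neurons. The arrays gave 1 signal per probe set, so the values below are transcript levels and say nothing on exon use.

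All 12 arrays held the same 28192 probe sets without missing values, and 22961 carried a gene symbol and were tested. Signals are log2 values, so a difference of 1 is a change of 2-fold, and the levels of different genes are not comparable because each probe set responds in its own way. Replicates of a group correlated at 0.995 to 0.999 over all tested probe sets and each array was closest to another of its own group. Background, set on each array from 1208 probe sets of olfactory and vomeronasal receptors (their 95th percentile), lay between 7.13 and 7.45, and all 10 genes were above it on all 12 arrays. In the fit with limma a difference was tested at a Benjamini-Hochberg adjusted p under 0.05 over all tested probe sets. "Rose" and "fell" are used of differences that passed this test, and a gene was called where it also changed more than 2-fold. Of 7 measured interneuron markers all 7 were called higher in interneurons at both ages, and 7 of 10 pyramidal markers were called lower. The pyramidal list was not uniform. Bcl11b passed in the opposite direction at both ages, with interneurons above pyramidal cells by 0.94 in the older groups and 0.61 at P0. Cux2 did so at P0 (0.71) but passed as lower in the older interneurons (-0.96). Emx1 passed as lower at both ages without being called (-0.99 and -0.73). Markers of the other population mostly fell with age: 8 of the 10 pyramidal markers fell in interneurons and 5 of the 7 interneuron markers in pyramidal cells, and none rose. Neurod6 was not above background in IN P10 and was at 9.85 ± 0.35 in IN P0, and Gad1 was at 8.49 ± 0.12 in Pyr P12 and 9.58 ± 0.18 in Pyr P0 (SD, n = 3 each), whereas Slc17a7 and Emx1 in interneurons and Slc32a1 and Dlx6 in pyramidal cells did not pass. All 8 oligodendrocyte precursor markers were called higher in interneurons at both ages, with a summed linear signal of 9969 to 15397 in IN P10, 11950 to 14998 in IN P0, 2541 to 2756 in Pyr P12 and 2142 to 2583 in Pyr P0. Of 8 myelinating oligodendrocyte markers 3 were called higher with age in interneurons, with sums of 5437 to 7106 in IN P10 and 2240 to 2343 in IN P0. Of 9 astrocyte markers 7 were above background in each of the 4 groups, and Aqp4 and Gjb6 were not above it in any. Their summed signals are given with Rbfox3 below. Of 9 microglia markers 7 were above background in IN P10, 4 in IN P0, 6 in Pyr P12 and 3 in Pyr P0. Because the sorted cells were measured in bulk, a smaller fraction of cells with a transcript and less of it per cell cannot be told apart.

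The sequence upstream of the transcription start is shown for 3 genes, Nova1 and Rbfox3, which rose more than 2-fold in pyramidal cells, and Ptbp1, which fell more than 2-fold in interneurons. Each line gives the 250 bases before the start, 5′ to 3′ on the gene's strand, from RefSeq on GRCm38.p6, at chr12:46818768-46819017 (minus strand) for Nova1, chr11:118761042-118761291 (minus strand) for Rbfox3 and chr10:79854182-79854431 (plus strand) for Ptbp1. Capitals mark matches to CANNTG, the E-box bound by basic helix-loop-helix factors.
Nova1: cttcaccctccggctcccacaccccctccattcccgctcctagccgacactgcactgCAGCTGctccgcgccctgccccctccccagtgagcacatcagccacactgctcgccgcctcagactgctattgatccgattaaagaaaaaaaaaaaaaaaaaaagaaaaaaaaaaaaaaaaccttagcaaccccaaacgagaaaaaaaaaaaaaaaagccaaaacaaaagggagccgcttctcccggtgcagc
Rbfox3: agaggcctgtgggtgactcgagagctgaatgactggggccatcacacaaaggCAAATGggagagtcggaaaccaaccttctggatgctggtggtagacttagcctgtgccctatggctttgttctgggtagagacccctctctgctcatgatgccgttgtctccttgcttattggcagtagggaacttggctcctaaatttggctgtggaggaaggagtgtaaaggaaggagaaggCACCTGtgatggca
Ptbp1: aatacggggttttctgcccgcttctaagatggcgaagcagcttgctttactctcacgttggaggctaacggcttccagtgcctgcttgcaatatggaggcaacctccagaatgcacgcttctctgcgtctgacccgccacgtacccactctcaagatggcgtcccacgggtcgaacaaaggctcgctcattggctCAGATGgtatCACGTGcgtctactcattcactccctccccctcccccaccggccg
The E-box matched once in Nova1 and 2 times each in Rbfox3 and Ptbp1, whereas 66.2% of 32851 promoter windows of this length held at least 1. The other motifs searched on both strands, TAATTA of homeodomain factors, TGACGTCA of CREB and GGGCGG of Sp factors, matched none of the 3 windows and occurred in 4.84%, 1.55% and 32.7% of all windows. Ptbp1 had 17 CG dinucleotides, Nova1 11 and Rbfox3 3, against a median of 6 over all windows. These matches describe the letters only. Of the 10 genes, 9 had an entry in the table of promoters.

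Between birth and the second postnatal week Ptbp1 and Ptbp2 fell in both populations, and the RBFOX and NOVA genes each divided into members with different courses. Elavl2 and Nova1 were higher in interneurons than in pyramidal cells at both ages. With age in interneurons, 7 of the 10 genes passed the test, 2 higher and 5 lower, where 45.5% of all tested probe sets passed, 22.3% higher and 23.1% lower. The only gene called was Ptbp1, lower in IN P10, where the background of calls was 4.19% higher, 2.85% lower and 7.04% in either direction. With age in pyramidal cells, 8 passed, 3 higher and 5 lower, against 54.7% of all probe sets, 33.0% higher and 21.7% lower. Rbfox3 and Nova1 were called higher in Pyr P12, where the background was 5.68% higher, 3.48% lower and 9.16% in either direction. Between IN P10 and Pyr P12, 7 passed, 4 higher and 3 lower (46.6% of all probe sets, 16.1% higher and 30.4% lower). Elavl2 was called higher in IN P10 and Rbfox3 lower, beside 2.65% of probe sets called higher, 2.91% lower and 5.56% in either direction. Between IN P0 and Pyr P0, 5 passed, each higher in interneurons, where 11.1% of probe sets were higher, 11.3% lower and 22.4% passed in either direction. Nova1 alone was called, against 1.9% called higher, 1.74% lower and 3.64% in either direction. The median size of a difference among the 10 genes, without its sign, was 0.43 in interneurons with age and 0.84 in pyramidal cells with age, against 0.16 and 0.20 over all tested probe sets. These references are not like for like. The 10 genes were all above background, whereas 14631 of 19937 genes were above it in any group. Whether the 10 genes changed more than other genes above background was not tested. The percentages of all probe sets, here and below, share this limit.

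**Figure D1:**
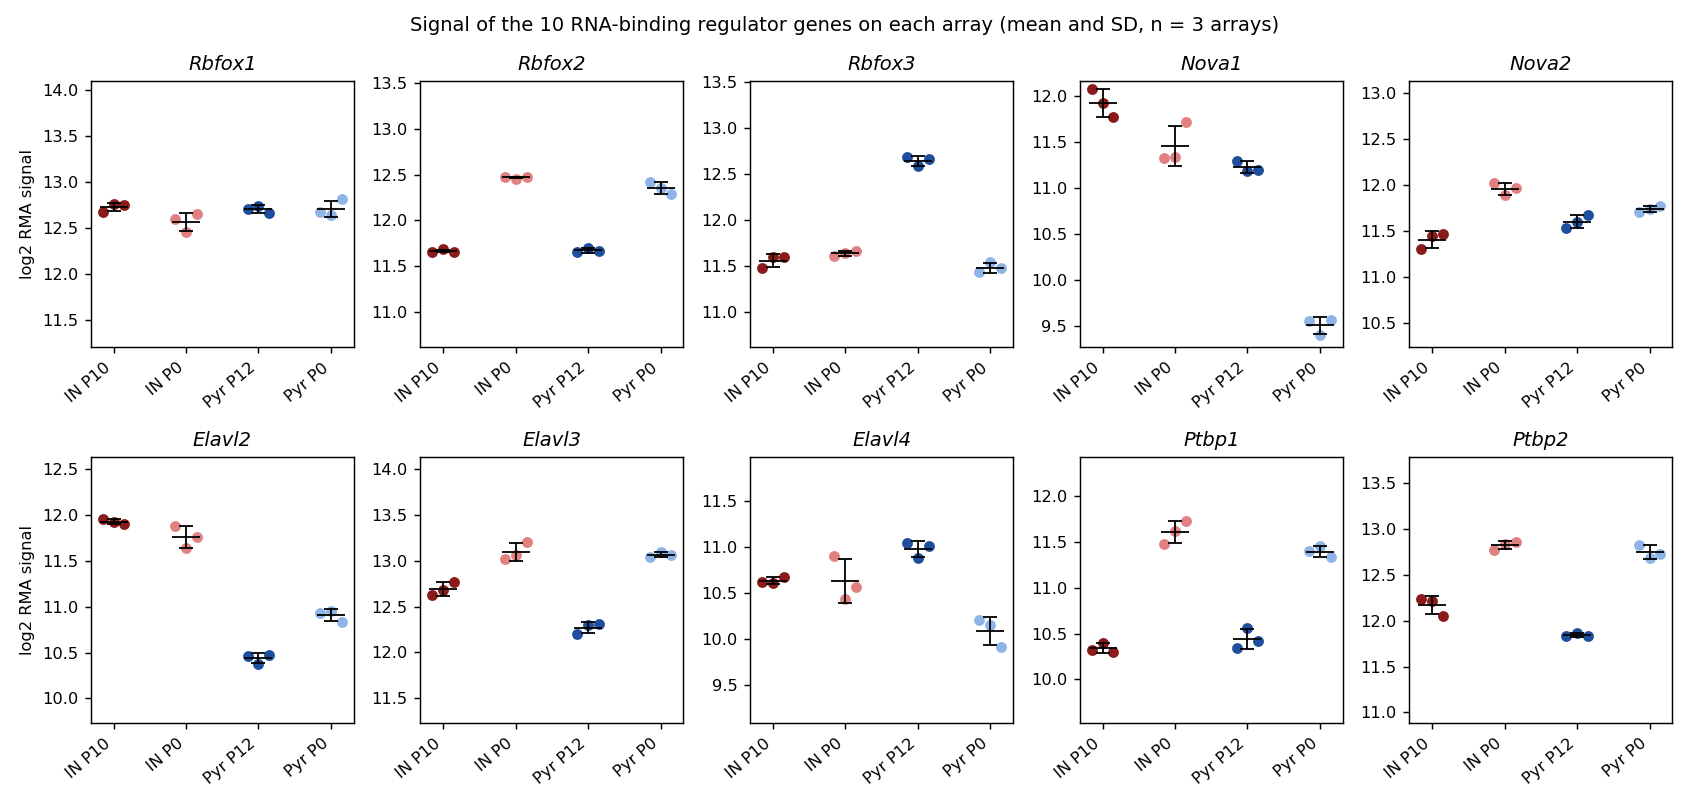
Log2 RMA signal of each gene on the 12 arrays, with IN P10, IN P0, Pyr P12 and Pyr P0 from left to right; points are arrays, bars the mean and SD of 3 arrays, and every panel spans the same range of log2 units. Ptbp1, Ptbp2, Rbfox2 and Elavl3 were lower in both older groups, Rbfox3 was high in Pyr P12 and Nova1 was low in Pyr P0.

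Ptbp1, the repressor of neuronal exons, was at 10.32, 10.40 and 10.30 in IN P10, against 11.48, 11.62 and 11.72 in IN P0. In pyramidal cells it was at 10.35, 10.56 and 10.42 in Pyr P12, against 11.39, 11.45 and 11.33 in Pyr P0. All 6 arrays of the older groups lay below all 6 arrays at P0. The fall was 2.40-fold in interneurons (log2 fold change -1.26 ± 0.07, SE; adjusted p = 7.22e-09) and 1.93-fold in pyramidal cells (-0.95 ± 0.07; adjusted p = 8.19e-08), so that only the first was called. The fall was larger in interneurons, with -0.31 ± 0.10 between the 2 changes (adjusted p = 0.0306). IN P0 exceeded Pyr P0 by 0.21 (adjusted p = 0.0474), while IN P10 and Pyr P12 overlapped and differed by -0.10 ± 0.07 (adjusted p = 0.279). Without array B of Pyr P12 the change in pyramidal cells was -1.01 and was called. Another probe set with the symbol Ptbp1 gave smaller changes, -0.75 in interneurons and -0.41 in pyramidal cells, both past the adjusted p but neither called. Of 9 measured markers of cycling progenitors, in which PTBP1 is abundant, 6 fell with age in interneurons and 4 in pyramidal cells, and none rose. Aurkb, Nes and Sox2 fell in both, with Sox2 in pyramidal cells the only one called (-1.35), while Birc5 and Hes5 passed in neither. Birc5 was not above background in any group. The summed linear signal of the list was 3765 to 3896 in IN P10, 5537 to 6235 in IN P0, 1696 to 1803 in Pyr P12 and 2115 to 2213 in Pyr P0. Mki67 was above background on 1 array of IN P10, all 3 of IN P0 and none of Pyr P12 or Pyr P0. Of 8 oligodendrocyte precursor markers 4 fell and 2 rose with age in interneurons, and of 8 myelinating markers 7 rose. In pyramidal cells 1 precursor marker rose, and of the myelinating markers 2 rose and 1 fell. The part of these markers and of the progenitor markers in the Ptbp1 result was not tested.

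Ptbp2, the neuronal paralogue, fell alongside Ptbp1. Its signals were 12.24, 12.22 and 12.05 in IN P10, against 12.77, 12.84 and 12.86 in IN P0. They were 11.83, 11.87 and 11.84 in Pyr P12, against 12.83, 12.68 and 12.73 in Pyr P0. Older and P0 groups did not overlap in either population. The change was -0.65 ± 0.06 in interneurons (1.57-fold, adjusted p = 6.85e-07) and -0.90 ± 0.06 in pyramidal cells (1.87-fold, adjusted p = 2.17e-08). Whereas Ptbp1 fell further in interneurons, Ptbp2 fell further in pyramidal cells, with 0.25 ± 0.08 between the 2 changes (adjusted p = 0.0401). Newborn interneurons and pyramidal cells overlapped (difference 0.08, adjusted p = 0.469), and IN P10 was above Pyr P12 by 0.32 (adjusted p = 0.000566).

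Among the RBFOX genes, Rbfox1 was nearly level and Rbfox2 and Rbfox3 each followed a course of its own. Rbfox1 lay between 12.46 and 12.82 on all 12 arrays and passed in none of the comparisons, with log2 fold changes of 0.16 ± 0.06 in interneurons with age (adjusted p = 0.0529) and -0.00 ± 0.06 in pyramidal cells (adjusted p = 0.976). Rbfox2 was at 11.66, 11.68 and 11.66 in IN P10, against 12.48, 12.46 and 12.47 in IN P0. It was at 11.65, 11.70 and 11.67 in Pyr P12, against 12.42, 12.35 and 12.29 in Pyr P0. All 6 older arrays lay between 11.65 and 11.70, below every P0 array. Rbfox2 fell by 0.80 ± 0.05 in interneurons (1.74-fold, adjusted p = 1.14e-08) and by 0.68 ± 0.05 in pyramidal cells (1.60-fold, adjusted p = 3.88e-08). The falls differed by -0.12 ± 0.07, which did not pass (adjusted p = 0.198), and IN P10 and Pyr P12 differed by -0.01 (adjusted p = 0.925).

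Rbfox3, which encodes the NeuN protein, rose in pyramidal cells and did not pass the test in interneurons. It was at 11.48, 11.59 and 11.60 in IN P10, against 11.60, 11.64 and 11.66 in IN P0. In pyramidal cells it was at 12.68, 12.58 and 12.66 in Pyr P12, against 11.43, 11.54 and 11.47 in Pyr P0. The 3 Pyr P12 arrays were the highest of the 12, and the other 9 arrays lay between 11.43 and 11.66. The rise in pyramidal cells was 2.24-fold (1.16 ± 0.05, adjusted p = 5.60e-10) and the change in interneurons was -0.08 ± 0.05 (adjusted p = 0.282). The difference between the 2 changes was -1.24 ± 0.08 (adjusted p = 5.88e-08). IN P10 was 2.12-fold below Pyr P12 (-1.08 ± 0.05, adjusted p = 1.92e-09), whereas the difference of 0.15 ± 0.05 at P0 did not pass (adjusted p = 0.0546). Slc1a2, a glutamate transporter gene of the astrocyte list, also rose in pyramidal cells (4.17 ± 0.06), and the summed linear signal of the 9 genes was 2955 to 3585 in IN P10, 2659 to 3094 in IN P0, 8665 to 9000 in Pyr P12 and 2351 to 2436 in Pyr P0. The list did not move together: in pyramidal cells Slc1a2, Aldh1l1 (1.29) and Aldoc (0.93) rose, Fgfr3 (-0.90), Slc1a3 (-0.46) and Sox9 (-0.23) fell, Gfap did not pass, Aqp4 and Gjb6 were not above background, and its part in the Rbfox3 result was not tested.

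Nova1 gave the widest range of the 10 genes over the arrays. Its signals were 12.08, 11.92 and 11.77 in IN P10, against 11.32, 11.34 and 11.71 in IN P0. They were 11.30, 11.18 and 11.20 in Pyr P12, against 9.56, 9.40 and 9.56 in Pyr P0. Pyr P0 stood below all other arrays, and array C of IN P0 lay close to the lowest array of IN P10. Nova1 rose 3.30-fold in pyramidal cells with age (1.72 ± 0.10, adjusted p = 7.53e-09) and 1.38-fold in interneurons (0.46 ± 0.10, adjusted p = 0.0018). The rise was smaller in interneurons, with -1.26 ± 0.15 between the 2 changes (adjusted p = 1.91e-05). Interneurons were above pyramidal cells at both ages, 3.87-fold at P0 (1.95 ± 0.10, adjusted p = 6.73e-09) and 1.62-fold in IN P10 against Pyr P12 (0.70 ± 0.10, adjusted p = 8.70e-05). The other Nova1 probe set was called in the same 3 comparisons, with 1.35 in pyramidal cells with age, 1.67 between the populations at P0 and -1.06 for the difference between the changes. The markers of oligodendrocyte precursors given above were also higher in interneurons. With age in pyramidal cells 1 of the 8, Lhfpl3, rose (0.62 ± 0.13, adjusted p = 0.00131) and 7 did not pass. Their part in the Nova1 result was not tested.

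Nova2, the other NOVA gene, fell in interneurons. It was at 11.30, 11.45 and 11.47 in IN P10, against 12.02, 11.89 and 11.97 in IN P0. It was at 11.53, 11.60 and 11.67 in Pyr P12, against 11.70, 11.74 and 11.77 in Pyr P0. The groups of each population did not overlap, but in pyramidal cells the gap between them was small. The change was -0.55 ± 0.06 in interneurons (1.47-fold, adjusted p = 3.78e-06) and -0.14 ± 0.06 in pyramidal cells (adjusted p = 0.0727), with -0.42 ± 0.09 between them (adjusted p = 0.00209). IN P0 was above Pyr P0 by 0.22 (adjusted p = 0.0161), and IN P10 was below Pyr P12 (-0.19, adjusted p = 0.0182). The NOVA genes therefore changed with age in opposite directions in interneurons, Nova1 up and Nova2 down, each at a fold change below 2.

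**Figure D2:**
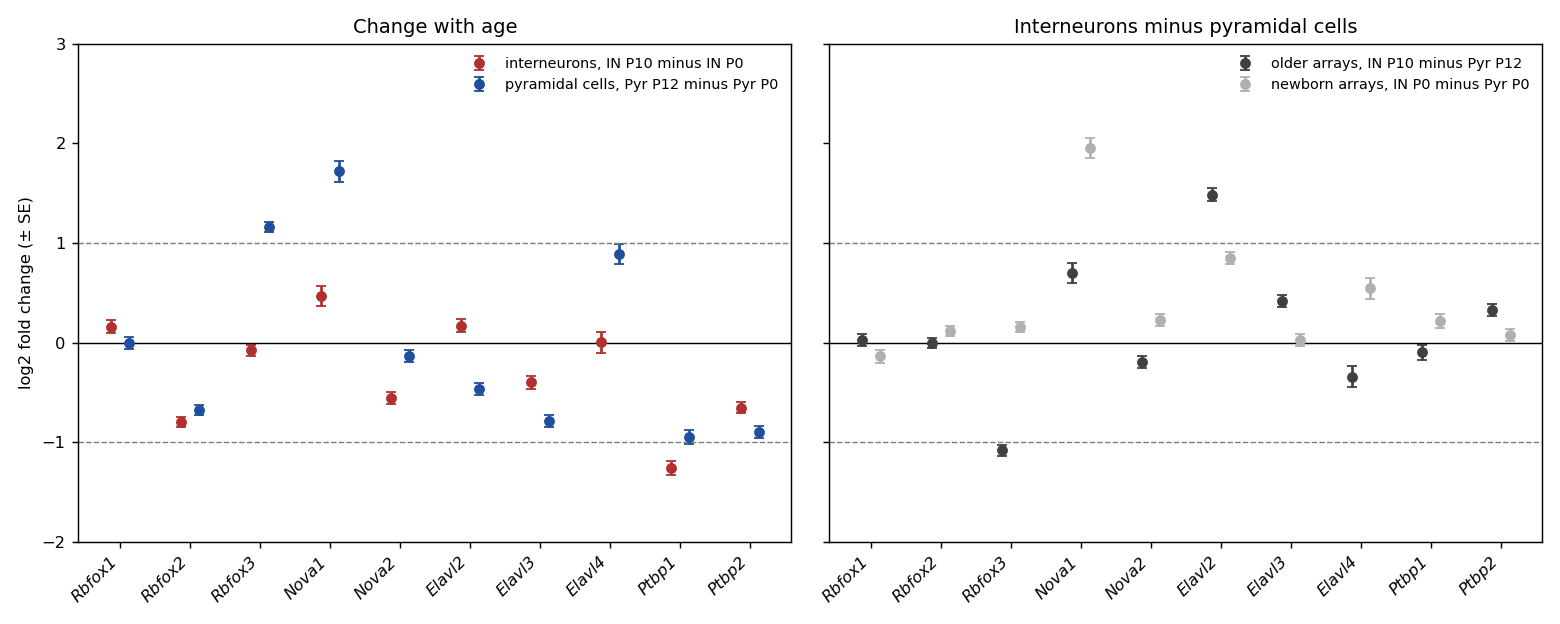
Log2 fold change of each gene, with bars of ± 1 SE and dashed lines at a change of 2-fold. On the left are the changes with age in interneurons and in pyramidal cells, where Rbfox3 (-0.08 and 1.16), Nova1 (0.46 and 1.72) and Elavl4 (0.00 and 0.89) lay furthest apart. On the right are the differences of interneurons minus pyramidal cells, at P10 against P12 and at P0, with Elavl2 above 0 at both.

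Elavl2 (HuB) separated the populations at both ages. It was at 11.95, 11.92 and 11.90 in IN P10 and at 11.87, 11.63 and 11.76 in IN P0. In pyramidal cells it was at 10.46, 10.38 and 10.48 in Pyr P12 and at 10.93, 10.95 and 10.83 in Pyr P0. All 6 interneuron arrays exceeded all 6 pyramidal arrays. The same held for Nova1, by a narrow gap, with 11.32 in array A of IN P0 against 11.30 in array A of Pyr P12. IN P10 was 2.80-fold above Pyr P12 (1.49 ± 0.06, adjusted p = 4.69e-10) and was called, and IN P0 was 1.80-fold above Pyr P0 (0.85 ± 0.06, adjusted p = 2.15e-07). With age it rose by 0.17 ± 0.06 in interneurons (adjusted p = 0.043) and fell by 0.47 ± 0.06 in pyramidal cells (adjusted p = 2.68e-05), and the difference between these changes was 0.64 ± 0.09 (adjusted p = 0.00011). The oligodendrocyte precursor markers were higher on the same arrays, and their part in this result was not tested.

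Elavl3 (HuC) fell with age in both populations. It was at 12.62, 12.67 and 12.77 in IN P10, against 13.01, 13.06 and 13.20 in IN P0. It was at 12.21, 12.30 and 12.31 in Pyr P12, against 13.04, 13.09 and 13.06 in Pyr P0. The P0 groups overlapped and the older groups lay below them, with Pyr P12 lowest. The change was -0.40 ± 0.06 in interneurons (adjusted p = 7.99e-05) and -0.79 ± 0.06 in pyramidal cells (adjusted p = 9.60e-08), larger in pyramidal cells by 0.39 ± 0.09 (adjusted p = 0.00339). Accordingly the populations differed by 0.03 at P0 (adjusted p = 0.866) and by 0.42 in IN P10 against Pyr P12 (adjusted p = 8.08e-05).

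Elavl4 (HuD) rose with age in pyramidal cells and did not pass the test in interneurons. It was at 10.62, 10.61 and 10.68 in IN P10, against 10.91, 10.44 and 10.57 in IN P0. It was at 11.04, 10.89 and 11.01 in Pyr P12, against 10.21, 10.15 and 9.91 in Pyr P0. The IN P0 arrays were spread widely (SD 0.24) and enclosed those of IN P10, whereas Pyr P12 and Pyr P0 did not overlap. The change was 0.00 ± 0.11 in interneurons (adjusted p = 0.997) and 0.89 ± 0.11 in pyramidal cells (1.85-fold, adjusted p = 7.10e-06), and the difference between them was -0.89 ± 0.15 (adjusted p = 0.000455). The order of the populations differed between ages: IN P0 was above Pyr P0 by 0.55 (adjusted p = 0.00155), and IN P10 was below Pyr P12 (-0.34, adjusted p = 0.017).

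The difference between the age courses of the populations, tested directly, passed for 8 of the 10 genes, 3 higher and 5 lower in interneurons, where 32.1% of all tested probe sets passed, 11.8% higher and 20.3% lower. It was called lower for Rbfox3 and Nova1, against 2.24% of all probe sets called higher, 2.63% lower and 4.86% in either direction. Rbfox1 and Rbfox2 did not pass. Groups without overlap were seen for 9 genes in each comparison with age (57.1% of all probe sets in interneurons and 58.1% in pyramidal cells), for 7 genes between IN P10 and Pyr P12 (59.0%) and for 7 genes at P0 (32.5%).

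Other regulators were counted from lists of related RNA-binding proteins. Of 37 SR and hnRNP proteins, the general splicing factors that favour or oppose exon inclusion, 32 were measured. In interneurons 29 of these fell with age and 2 rose, with a median log2 fold change of -0.58, where 23.1% of all probe sets fell and the median over all was 0.00. In pyramidal cells 23 fell and 2 rose (median -0.51), beside 21.7% of all probe sets that fell and a median of 0.06 over all. Most of these changes were below 2-fold. Hnrnpr, an hnRNP, was called lower in interneurons, at 9.99 in IN P10 against 11.02 in IN P0 (-1.03 ± 0.08), and so was Taf15, an RNA-binding protein, at 10.24 in IN P10 and 11.25 in IN P0 (-1.01 ± 0.06). Srsf3, an SR protein, was called lower in pyramidal cells, with 11.91 in Pyr P12 against 13.15 in Pyr P0 (-1.25, adjusted p = 7.80e-09). Pcbp3, a poly(C)-binding protein, went the other way and was called higher in both populations, at 10.97 in IN P10, with 9.72 in IN P0, and at 11.31 in Pyr P12 against 10.22 in Pyr P0. Between the populations at P0, 3 of the 32 passed limma's adjusted p, 1 higher and 2 lower, and none was called, beside 22.4% of all probe sets that passed and 3.64% that were called.

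**Figure D3:**
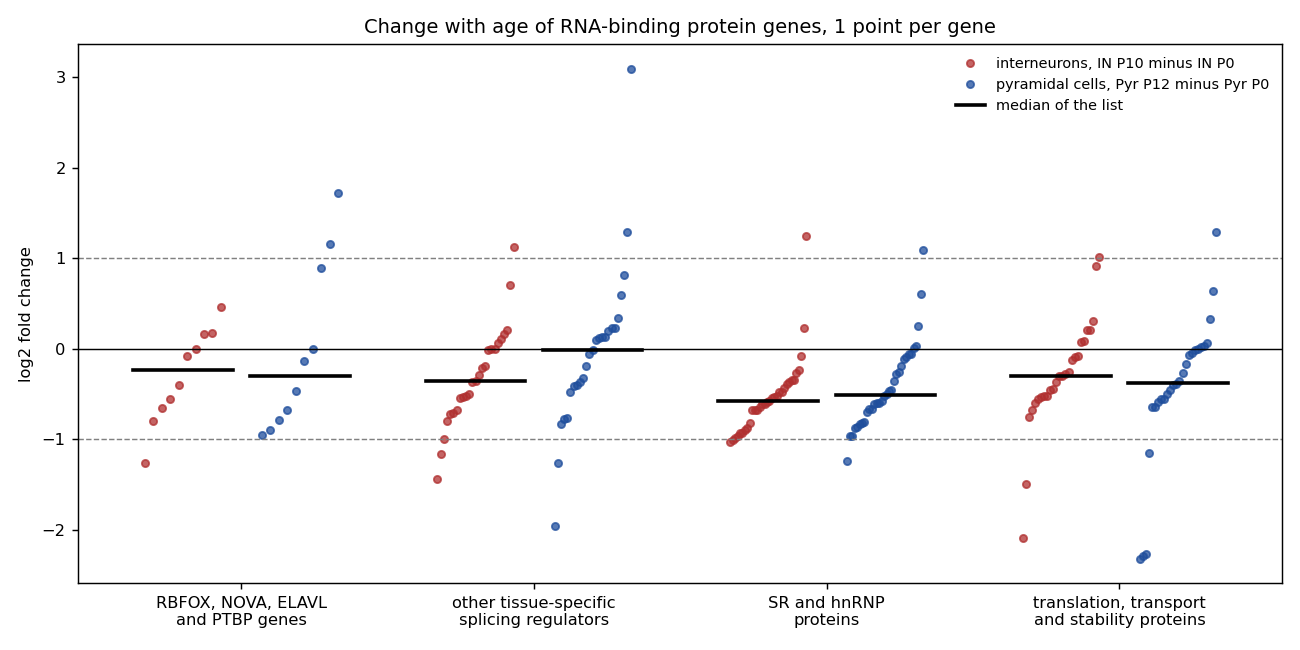
Log2 fold change with age of each measured gene (1 point per gene, sorted within a list) in interneurons, left of each pair, and in pyramidal cells, right of each pair, for the 10 genes and 3 lists of other RNA-binding proteins. Black bars are list medians and dashed lines mark 2-fold; the medians of SR and hnRNP proteins were -0.58 and -0.51.

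Among other tissue-specific splicing regulators 25 of 27 were measured, and 3 rose and 15 fell in interneurons, where 22.3% of all probe sets rose and 23.1% fell. In pyramidal cells 7 rose and 10 fell, beside 33.0% and 21.7% of all probe sets. Mbnl2, a muscleblind protein that promotes mature splicing patterns, was called higher in both populations, with 11.56 in IN P10 against 10.43 in IN P0 and 12.84 in Pyr P12 against 9.74 in Pyr P0. Its rise in pyramidal cells was 3.10 ± 0.07 (adjusted p = 1.59e-12) and in interneurons 1.13 ± 0.07 (adjusted p = 2.65e-08), with -1.97 ± 0.10 between the changes (adjusted p = 1.59e-08). Khdrbs2 (SLM1), an alternative splicing factor of the STAR family, was called lower in both, at 8.67 in IN P10 against 9.83 in IN P0 (-1.16 ± 0.12) and at 9.42 in Pyr P12 against 11.39 in Pyr P0 (-1.96 ± 0.12). Ptbp3, the third PTBP paralogue, was called lower in interneurons, at 9.03 in IN P10 against 10.47 in IN P0 (-1.44 ± 0.08, adjusted p = 7.03e-09). In pyramidal cells Ptbp3 was higher, at 10.71 in Pyr P12 against 9.90 in Pyr P0, and the difference between the changes was -2.25 ± 0.12 (adjusted p = 1.33e-08). The course of Ptbp3 thus differed from those of Ptbp1 and Ptbp2, which fell in both. Raver2, a partner of PTBP1, was called higher in pyramidal cells (10.46 in Pyr P12 against 9.17 in Pyr P0) and Srrm4 (nSR100), which promotes neuronal microexons, lower (10.28 in Pyr P12 against 11.55 in Pyr P0).

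Between the populations, Qk (quaking), a splicing regulator that is abundant in glia, was called higher in interneurons at both ages, at 12.11 in IN P10 against 9.82 in Pyr P12 and 12.64 in IN P0 against 10.59 in Pyr P0. The oligodendrocyte precursor markers moved with it, all 8 of 8 called higher, and their part in the Qk difference was not tested. Rbm24 was called lower in interneurons at both ages (-1.80 and -1.55). Raver2 and Ptbp3 were called lower in IN P10 relative to Pyr P12 (-2.39 ± 0.08 and -1.68 ± 0.08), and Khdrbs2 was called lower in IN P0 than in Pyr P0 (-1.56 ± 0.12).

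Of 28 proteins of translation, transport and stability 26 were measured, of which 15 fell and 5 rose in interneurons (23.1% and 22.3% of all probe sets) and 16 fell and 3 rose in pyramidal cells (21.7% and 33.0%). Msi1 (Musashi), a translational regulator of progenitors, was called lower in both, at 10.56 in IN P10 against 12.06 in IN P0 and at 9.31 in Pyr P12 against 11.60 in Pyr P0. Igf2bp3, an mRNA-binding protein of fetal tissue, was not above background in IN P10 or Pyr P12, against 8.87 in IN P0 and 9.07 in Pyr P0. Igf2bp1 was not above background on any Pyr P12 array, against 9.38 in Pyr P0. Cpeb1, which controls polyadenylation and dendritic translation, was called higher in both populations, at 8.88 in IN P10 against 7.87 in IN P0 and 9.05 in Pyr P12 against 7.76 in Pyr P0. Between older interneurons and pyramidal cells 13 were higher and 1 lower, where 16.1% of all probe sets were higher and 30.4% lower, and Msi1 was called higher (1.25 ± 0.06), as were 2.65% of probe sets. At P0, Lin28b was called higher in interneurons (8.27 in IN P0, against 7.21 in Pyr P0) and Igf2bp1 lower (-1.32 ± 0.08). The Lin28b signal in Pyr P0 was near background and above it on 2 of 3 arrays.

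Genes whose transcripts these proteins are known to bind were measured at the gene level only. Among NOVA-bound genes, 8 of 9 were measured, and Dab1, the Reelin adaptor, was called lower in pyramidal cells with age, at 10.95 in Pyr P12 against 12.53 in Pyr P0, and lower in IN P0 than in Pyr P0 (-1.96 ± 0.12). Kcnj6 (GIRK2), a potassium channel subunit, rose in pyramidal cells to 10.15 in Pyr P12, against 7.82 in Pyr P0 (2.33 ± 0.09), and IN P10 was below Pyr P12 (-1.70 ± 0.09). Glra2, a glycine receptor subunit, was called higher in IN P10, by 1.33 ± 0.06 over Pyr P12. Among RBFOX-bound genes 5 of 7 were measured. In interneurons 3 rose with age and 2 fell, Cacna1c (-0.46) and Ank3 (-0.34), where 22.3% of all probe sets rose and 23.1% fell. In pyramidal cells 4 rose and 1 did not pass, beside 33.0% of all probe sets that rose and 21.7% that fell. Vamp1 (synaptobrevin) was called higher in interneurons with age (1.65 ± 0.07). Scn8a, a sodium channel, and Snap25, a synaptic SNARE protein, were called higher in pyramidal cells (1.40 ± 0.07 and 1.40 ± 0.06). Of the PTBP-bound genes 3 of 4 were measured. Dlg4 (PSD-95), whose transcript PTBP proteins keep low in immature neurons, was called higher in pyramidal cells, at 12.95 in Pyr P12 against 11.82 in Pyr P0, and Flna (filamin A) was called lower (-1.09 ± 0.07). In interneurons Dlg4 rose by 0.28, below 2-fold (adjusted p = 0.000257). Of 4 measured ELAVL-bound genes none was called by limma in any comparison, beside 3.64% to 9.16% of all probe sets. In each of the 4 comparisons of groups, 1 passed the adjusted p higher and 1 lower. Over all probe sets 22.4% to 54.7% passed in these comparisons.

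The genes with the most similar profiles over the 12 arrays were taken from 14630 other genes above background. The arrays form 4 groups, so a high coefficient describes mainly the order of 4 group means. For Rbfox2 they were Cnot6 and Ago4, of mRNA deadenylation and miRNA silencing (Pearson r = 0.997 each). For Ptbp1 they were Chd8, a chromatin remodeller, and Setbp1 (0.997 and 0.996). For Ptbp2 they were Rcbtb1 and Ddx6, an RNA helicase (0.994 and 0.992). For Elavl2 they were Tmem132c and Gad1, the GABA-synthesising enzyme (0.995 and 0.994), so that Elavl2 followed an interneuron marker. Rbfox3 was nearest to Msl3l2 and Ppp2r5a, Nova1 to Pxdc1 and Pstpip2, Nova2 to Ankrd16 and Phc2, Elavl3 to Gpsm1 and Soga1, and Elavl4 to Abitram and Hdac4, at 0.936 to 0.993. Rbfox1, which hardly varied, was nearest to Hmx3 and Uty (0.902 and 0.889).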

How the data were processed

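Total RNA of sorted cells was amplified, labelled with biotin and hybridised to Affymetrix Mouse Gene 1.0 ST arrays. The authors normalised the scans by RMA (background correction, quantile normalisation and probe summarisation) and deposited log2 values, 1 per probe set and array. Software versions and the genome build were not given in the sources used here. RMA makes the distributions of the arrays alike, so a shift shared by most genes would not be seen, and the number of arrays limits the precision.

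Gene symbols came from the platform annotation: 21640 probe sets had 1 symbol, 1321 several and 5231 none, and the last were not tested. All 12 arrays entered 1 fit in limma 3.58.1 (R 4.3.3; lmFit and eBayes, 1 term per group, 8 residual degrees of freedom) with 5 contrasts, the last being the change with age in interneurons minus that in pyramidal cells. P-values were adjusted by Benjamini-Hochberg over 22961 probe sets. The thresholds, an adjusted p of 0.05 together with a change of 2-fold, follow the study's methods, which name SAM; limma was used in its place because so few arrays allow few label orders. Groups came from the sample titles. Each p-value sets a difference against the spread between samples labelled as biological replicates. That spread was pooled over the 4 groups and moderated by eBayes over all tested probe sets. Named genes were the 10 members, the 2 nearest profiles of each, and up to 4 called genes with the largest change per list and contrast. The members and lists were chosen with earlier results of these data known. Nova1 and Ptbp1 had 2 probe sets each, and both are given. Alternatives were a replicate block, each comparison's 2 groups alone, robust limma-trend, other probe set filters, median centring, other fold thresholds and leaving out each array.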

Additional observations from a re-analysis of the deposited data

Results flagged for a closer look

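For 8 of the 10 genes the change with age differed between interneurons and pyramidal cells by the test of the difference itself in limma; each value is the change of IN P10 against IN P0 minus that of Pyr P12 against Pyr P0, in log2 units, over 12 arrays. Nova1 differed by -1.26 (adjusted p = 1.91e-05) and Rbfox3 by -1.24 (adjusted p = 5.88e-08). Elavl4 differed by -0.89 (adjusted p = 0.000455), Nova2 by -0.42 (adjusted p = 0.00209) and Ptbp1 by -0.31 (adjusted p = 0.0306). In the other direction, Elavl2 differed by 0.64 (adjusted p = 0.00011), Elavl3 by 0.39 (adjusted p = 0.00339) and Ptbp2 by 0.25 (adjusted p = 0.0401).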

How the results depend on the processing

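Of 950 alternative values of single genes, 939 kept their direction and their side of the threshold. Many of these values could not have changed direction. The replicate block, the 2 groups alone, limma-trend and the probe set filters leave the fold change itself as it was. So does leaving out an array of a group that is not in the comparison. In these settings only the adjusted p could move. The number of genes called was 1 in IN P10 against IN P0, 2 in Pyr P12 against Pyr P0, 2 in IN P10 against Pyr P12, 1 in IN P0 against Pyr P0 and 2 for the difference between the changes with age. A fold threshold of 1.5 gave 3, 7, 3, 2 and 4 in the same order of comparisons, and no fold threshold gave 7, 8, 7, 5 and 8. Leaving out each array in turn gave 1 to 1, 2 to 3, 2 to 2, 1 to 1 and 2 to 2. The third call in pyramidal cells was Ptbp1, at -1.01 without array B of Pyr P12. With the other probe set, Ptbp1 was no longer called in interneurons (-0.75) and turned to 0.0790 in IN P10 against Pyr P12. The remaining reversals were of values near 0 that did not pass the test. With arrays centred on the median, Rbfox2 in IN P10 against Pyr P12 was 0.0182. Leaving out each array in turn gave -0.0163 to 0.00698 for this value, -0.0358 to 0.0486 for Rbfox1 in pyramidal cells with age, -0.0291 to 0.0641 for Elavl3 between the populations at P0 and -0.0978 to 0.135 for Elavl4 in interneurons with age. The cause was not tested.

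Whether the letters A to C pair the samples could not be decided from the deviations from the group means. Arrays of the same letter correlated at -0.18 to 0.19 (18 pairs, mean 0.03). Arrays of different letters correlated at -0.26 to 0.30 (36 pairs, mean -0.02). The ranges overlap, and deviations cancel within a group, so the coefficients depend on each other. Pairs lettered A ran from 0.06 to 0.16, pairs lettered B from -0.18 to 0.03 and pairs lettered C from -0.18 to 0.19. With the letter as a replicate block, 1, 2, 2, 1 and 2 genes were called, the same genes in each comparison.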
